A study of Mus musculus with 4 samples.

Results

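Interferon-stimulated antiviral genes are the genes that cells switch on when an interferon binds its receptor. Type I and type III interferons act through JAK kinases on a transcription factor complex that holds STAT2 and IRF9 and binds a DNA element called the interferon-stimulated response element (ISRE). Interferon-gamma acts mainly on a different element, the gamma-activated site (GAS). In the gut, epithelial cells and resident immune cells keep a basal level of these genes, which is known to depend on signals from the microbiota. A list of 37 gene names was used. A gene was a member when at least 1 probe set of the array was annotated to it alone, and the brightest of its probe sets, by the mean of all 4 arrays, stood for the gene, with no filter on low values. This gave 35 genes of the 18193 that the annotation names in this way. Isg15 and Ifi44 had no such probe set and are not analysed here. All 35 lay above the median of the array on each of the 4 arrays, and so all were among the 12189 genes that passed the filter on dim probe sets.

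RNA of the distal colon was measured on Affymetrix mouse expression arrays in 4 mice, 1 array per mouse. The groups were Adamts12 KO with 2% DSS, Adamts12 WT with 2% DSS, Adamts12 KO untreated and Adamts12 WT untreated. Adamts12 encodes a secreted metalloprotease, the KO mice are deficient in it, and dextran sodium sulfate (DSS) is a polymer that injures the colonic epithelium when it is given in the drinking water. Mice were 8 to 10 weeks old when treatment began. DSS lasted 7 days by the series text and 8 days by the treatment protocol, with 1 day without DSS after it. The labels used here name no strain, no deleted part of Adamts12 and no pooling of animals. With 1 array per group, no difference between arrays can be checked against replicates, and in whole tissue more cells of a type and more RNA per cell cannot be told apart.

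The 4 arrays had medians of 3.42 to 3.46 on the log2 scale. The brighter Adamts12 probe set was at 1.41 on the KO DSS and 2.18 on the WT DSS array, and at 1.42 on the KO untreated and 2.18 on the WT untreated array, in the direction of the labels but dim throughout. Actin probe sets of the 3′ end exceeded those of the 5′ end by 0.64 to 0.83. Epithelial markers were present on all arrays, with means over 9 genes of 10.36 on the KO DSS, 10.52 on the WT DSS, 10.69 on the KO untreated and 10.48 on the WT untreated array. Genes that mark position along the gut differed between the arrays. Hoxb13, a posterior homeobox gene, was at 8.40 on the KO DSS, 7.84 on the WT DSS, 2.48 on the KO untreated and 9.47 on the WT untreated array. Fabp2, whose product carries fatty acids in enterocytes, was at 4.51 on the KO DSS, 8.07 on the WT DSS, 10.62 on the KO untreated and 6.72 on the WT untreated array. Of the 6 posterior markers, the KO untreated array was the lowest for Hoxb13, Hoxd13 and Hoxa13, while Hoxd10 was at 3.61 on the KO DSS, 2.37 on the WT DSS, 4.30 on the KO untreated and 5.82 on the WT untreated array. Position markers also differed between the WT arrays. There, 4 of 6 posterior markers were at least 2-fold lower with DSS (median -1.76), where 4.96% of all genes tested were 2-fold lower. Of 8 markers of small intestine and proximal colon, 3 were at least 2-fold higher with DSS (5.82% of all genes) and 1 lower. In every comparison of a pair of arrays, the condition, the position of the tissue and the single mouse cannot be told apart.

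The ISRE is the element bound by the complex that holds STAT2 and IRF9, so matches to its letters near the members are shown first. The 300 bases around each annotated gene start (250 before and 50 after it) were searched on both strands in the RefSeq promoter table of GRCm38.p6 for GAAA, any 2 bases, GAAA. Of the 25 members in the table, 12 (48%) held a match in at least 1 window, against 3.99% of all 27025 genes in the table, and 3.44% of all windows held one. The GAS letters TTCNNNGAA stood in windows of 8 of the 25 members, against 9.55% of all genes and 8.3% of all windows. The matches of both motifs shared 3 bases in Bst2 and 3 in Ifitm3, and none in Oas1a and Eif2ak2. A match describes the letters and is no evidence of binding. The promoter of Ifit1, whose protein binds viral RNA lacking the host cap methylation, is given whole with its matches in capitals, chr19:34640639-34640938 on the plus strand. The window of Bst2, which encodes a membrane tether that holds back budding virus, is given likewise, chr8:71537423-71537722 on the minus strand. All sequences run 5′ to 3′ along the gene.
Ifit1: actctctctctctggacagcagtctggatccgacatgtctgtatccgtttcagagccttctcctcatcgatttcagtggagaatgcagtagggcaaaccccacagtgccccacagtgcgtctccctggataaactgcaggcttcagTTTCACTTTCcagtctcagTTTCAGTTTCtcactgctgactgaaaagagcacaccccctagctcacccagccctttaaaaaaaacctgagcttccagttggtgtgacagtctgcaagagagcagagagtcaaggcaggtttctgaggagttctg
Bst2: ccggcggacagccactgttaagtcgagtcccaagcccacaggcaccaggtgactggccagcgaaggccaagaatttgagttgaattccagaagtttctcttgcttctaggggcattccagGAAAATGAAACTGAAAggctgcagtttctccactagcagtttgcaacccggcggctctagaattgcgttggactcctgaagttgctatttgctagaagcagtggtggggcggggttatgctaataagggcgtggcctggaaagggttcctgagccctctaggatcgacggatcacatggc

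In Ifit1 the 2 matches begin 104 and 85 bases before the start and read on the other strand. In Bst2, 2 overlapping matches begin 130 bases before the start. Shorter stretches show a match of further members whose values are described below. Ifit3 and Ifitm3 each have a further match that is not printed, and the Oas1a stretch holds 2 overlapping matches. The matches shown for Ddx58 and Ifitm3 lie after the annotated start. The stretches printed have 10 bases on either side and the match in capitals. They lie at chr10:128270266-128270295 (Stat2, plus strand), chr4:40239804-40239833 (Ddx58, minus strand), chr5:120907520-120907555 (Oas1a, minus strand), chr5:120777715-120777744 (Oas3, minus strand), chr19:34583397-34583426 (Ifit3, plus strand), chr12:26456553-26456582 (Rsad2, minus strand) and chr7:141010706-141010735 (Ifitm3, minus strand).
Stat2: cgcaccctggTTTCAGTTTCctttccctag
Ddx58: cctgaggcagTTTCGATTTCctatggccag
Oas1a: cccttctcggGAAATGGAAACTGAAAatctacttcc
Oas3: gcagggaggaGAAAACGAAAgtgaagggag
Ifit3: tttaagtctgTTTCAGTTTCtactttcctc
Rsad2: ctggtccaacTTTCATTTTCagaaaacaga
Ifitm3: aaacttctgaGAAACCGAAActgccgcaga

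Across the 4 arrays most members shared 1 pattern, with the KO untreated array highest. For 30 of the 35, the KO untreated array was the highest of the 4, which held for 29% of all genes tested. The KO DSS array was the highest for 4 members, Irf1, Isg20, Ifitm3 and Trim30a (24% of all genes), the WT untreated array for 1, Ifi27 (23.8% of all genes), and the WT DSS array for 0 (23.2% of all genes). The mean over the members was 7.45 on the KO DSS array, 7.45 on the WT DSS array, 8.3 on the KO untreated array and 7.49 on the WT untreated array. Leaving out the KO untreated array, the values of 30 of the 35 genes lay within 2-fold of each other, with a median range of 0.54 on the log2 scale. The share of all genes for which this holds was not computed. The KO untreated value exceeded the highest other array by a median of 0.55, about the size of that range. It stood at least 2-fold above all 3 other arrays for 7 of the 35. The share of all genes was not computed for this count either, so it cannot be set against the other genes.

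**Figure D1:**
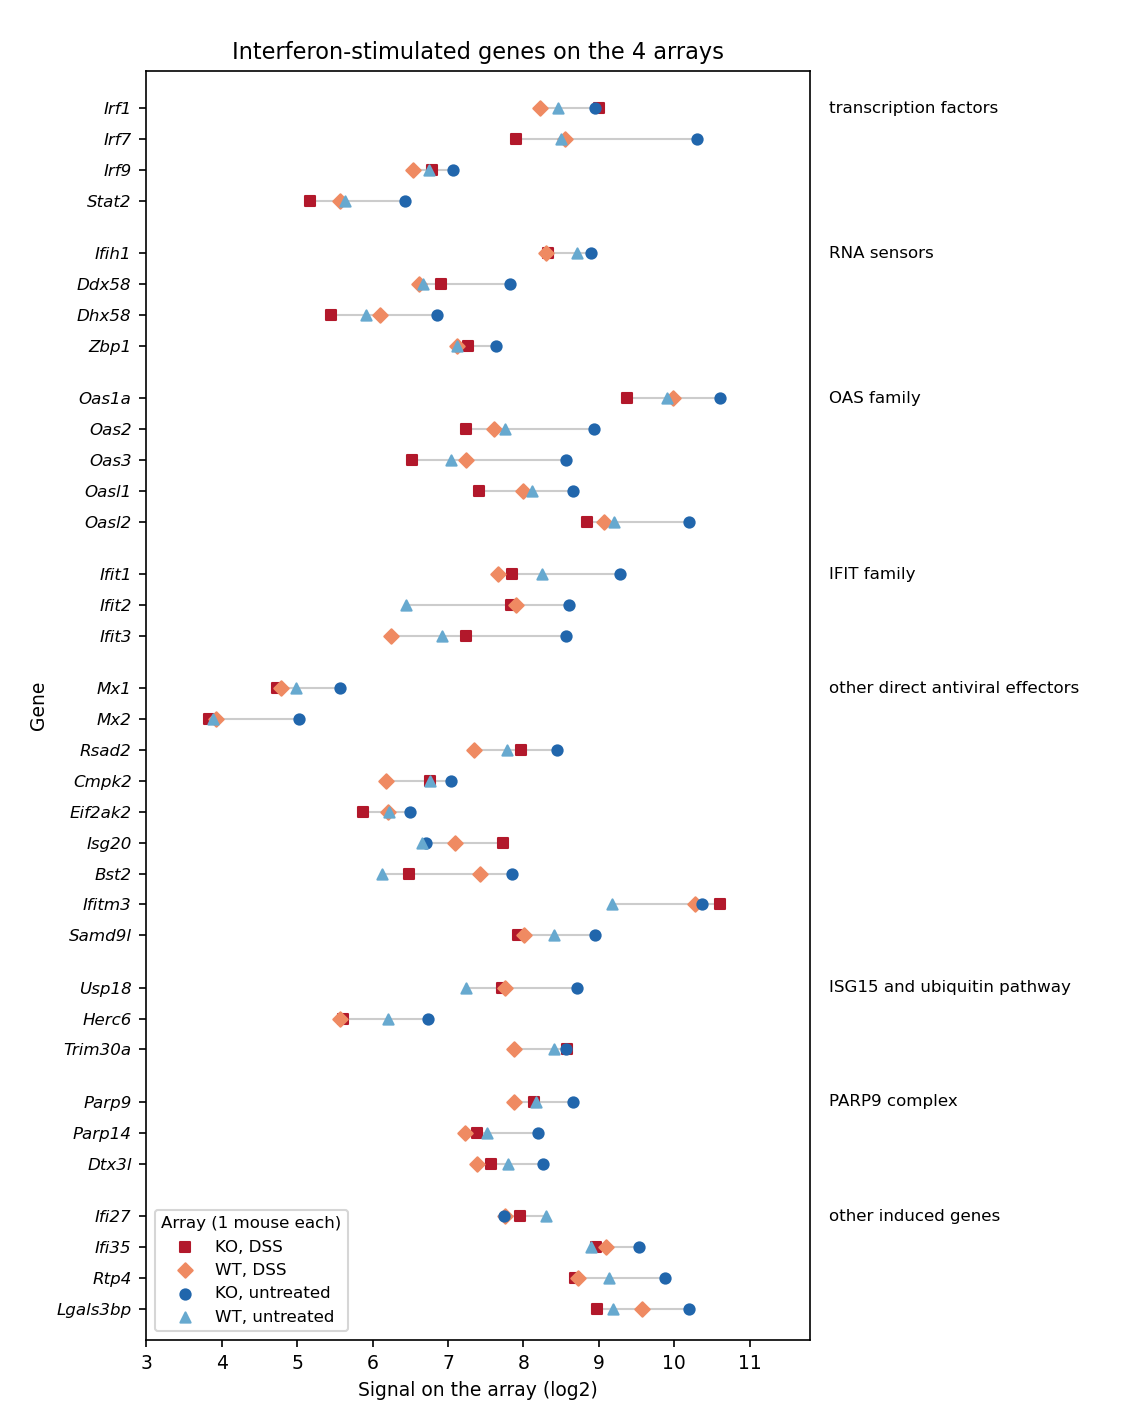
Signal of the 35 interferon-stimulated genes on the log2 scale (horizontal axis), 1 row per gene, grouped by role, with 1 point per array and a grey line from the lowest to the highest array. The KO untreated array (dark blue circles) is the highest point in 30 of 35 rows; positions of different genes on the axis are not comparable levels, since each probe set has its own brightness.

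Without DSS, the members were higher in the KO colon than in the WT colon. The log2 difference was above 0 for 34 of 35, with a median of 0.68, against -0.01 over all 12189 genes tested. At least 2-fold higher were 13 of the 35 members (37.1%), where 3.43% of all genes tested were 2-fold higher, and 0 were 2-fold lower (5.99% of all genes). The difference ran from -0.56 for Ifi27, the lowest, to 2.16 for Ifit2.

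**Figure D2:**
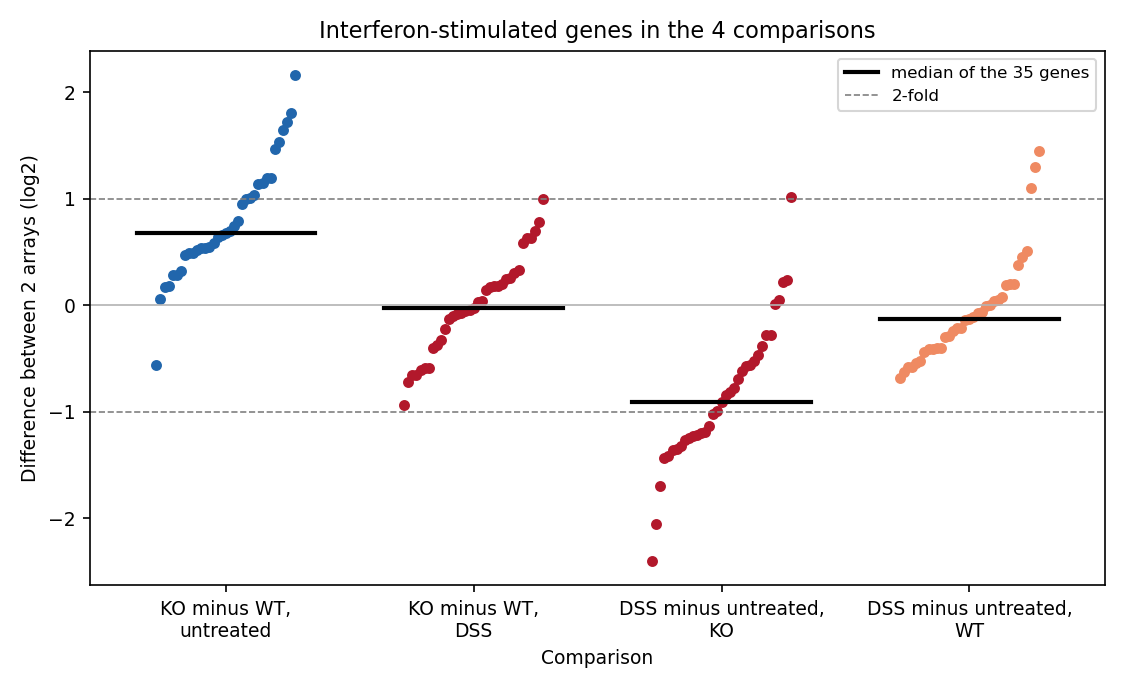
Log2 difference of each of the 35 interferon-stimulated genes in 4 comparisons of 1 array with 1 array, with genes sorted by value within each comparison, a black bar at their median and dashed lines at 2-fold. The medians are 0.68 for KO minus WT untreated, -0.03 for KO minus WT with DSS, -0.91 for DSS minus untreated in KO and -0.13 for DSS minus untreated in WT.

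Among the transcription factors that carry the response, Irf7, which drives production of interferon-alpha and amplifies the response, differed most. Irf7 was at 7.90 on the KO DSS and 8.55 on the WT DSS array, and at 10.30 on the KO untreated and 8.50 on the WT untreated array. The KO untreated array thus stood 3.48-fold above the WT untreated array, while the other 3 arrays lay within 0.65 of each other. Stat2, a subunit of the ISRE-binding complex, was at 5.17 on the KO DSS and 5.57 on the WT DSS array, and at 6.43 on the KO untreated and 5.64 on the WT untreated array, a KO minus WT difference of 0.79 without DSS. Irf9, the DNA-binding subunit of the same complex, differed by only 0.32 without DSS, at 7.07 on the KO untreated and 6.75 on the WT untreated array, and was at 6.79 on the KO DSS and 6.54 on the WT DSS array. Irf1, which responds mainly to interferon-gamma, had nearly equal values on both KO arrays, 9.0 with DSS and 8.95 without, against 8.22 on the WT DSS and 8.46 on the WT untreated array.

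The cytosolic RNA sensors were all higher on the KO untreated than on the WT untreated array. Ddx58, which encodes RIG-I, was at 6.91 on the KO DSS and 6.61 on the WT DSS array, and at 7.82 on the KO untreated and 6.67 on the WT untreated array, a difference of 1.15 without DSS. Its other 2 probe sets differed by 1.19 and 1.25. Dhx58, a regulator of RIG-I and MDA5, was at 6.86 on the KO untreated and 5.91 on the WT untreated array (0.95), and at 5.45 on the KO DSS and 6.10 on the WT DSS array. Ifih1, which encodes MDA5, and Zbp1, a sensor of Z-form nucleic acid that can start cell death, differed by only 0.18 and 0.52 without DSS.

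The 5 genes of the 2′,5′-oligoadenylate synthetase group agreed in which arrays stood at the ends. Oas1a, Oas2 and Oas3 make the messenger that activates RNase L, while Oasl1 and Oasl2 are OAS-like genes, and Oasl1 is known in mouse to restrain translation of Irf7. Oas3 was at 6.52 on the KO DSS and 7.24 on the WT DSS array, and at 8.57 on the KO untreated and 7.04 on the WT untreated array. In all 5 the KO untreated array was the highest and the KO DSS array the lowest. Oas2 was at 7.24 on the KO DSS, 7.61 on the WT DSS, 8.94 on the KO untreated and 7.75 on the WT untreated array. Without DSS the KO minus WT differences of the 5 ran from 0.55 (Oasl1) to 1.53 (Oas3), and with DSS from -0.72 (Oas3) to -0.22 (Oasl2). Their near-identical paralogs, such as those of Oas1a, may share signal on the array.

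The 3 Ifit genes, whose products bind viral RNA and curb its translation, were each at least 2-fold higher on the KO untreated than on the WT untreated array. Ifit2 was at 7.83 on the KO DSS and 7.90 on the WT DSS array, and at 8.61 on the KO untreated and 6.45 on the WT untreated array, so here the WT untreated array was the low one. Ifit3 was at 7.24 on the KO DSS and 6.24 on the WT DSS array, and at 8.56 on the KO untreated and 6.92 on the WT untreated array. It was the only member at least 2-fold apart between KO and WT with DSS, at the threshold itself (1.00). Ifit1 was at 7.85 on the KO DSS and 7.67 on the WT DSS array, and at 9.28 on the KO untreated and 8.25 on the WT untreated array.

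Other antiviral effectors split into those with the shared pattern and those with another. Mx2, a dynamin-like GTPase, was at 3.83 on the KO DSS, 3.93 on the WT DSS, 5.03 on the KO untreated and 3.89 on the WT untreated array, so that 3 arrays lay within 0.10. Its relative Mx1 was at 4.73 on the KO DSS, 4.78 on the WT DSS, 5.57 on the KO untreated and 4.99 on the WT untreated array. Bst2 was at 6.49 on the KO DSS and 7.43 on the WT DSS array, and at 7.85 on the KO untreated and 6.13 on the WT untreated array. DSS minus untreated was thus -1.36 in KO and 1.30 in WT, the only member at least 2-fold apart in opposite directions. Ifitm3, which blocks viral entry from endosomes, was at 10.61 on the KO DSS, 10.28 on the WT DSS, 10.37 on the KO untreated and 9.18 on the WT untreated array, which alone was low. Isg20, an exonuclease that degrades RNA, was at 7.73 on the KO DSS, 7.10 on the WT DSS, 6.71 on the KO untreated and 6.65 on the WT untreated array, with both DSS arrays above both untreated ones.

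The chosen probe sets of the remaining effectors differed less than 2-fold between KO and WT. Rsad2, which encodes viperin, an enzyme that makes a chain-ending nucleotide, was 0.66 higher in KO without DSS and 0.63 higher with DSS. Cmpk2, a nucleotide kinase gene, differed by 0.28 and 0.58, although its other probe set differed by 1.37 without DSS. The RNA-activated kinase gene Eif2ak2, which encodes PKR, differed by 0.28 and -0.33, and Samd9l, a restriction factor for poxviruses, by 0.54 and -0.08.

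In the ISG15 pathway, which conjugates a ubiquitin-like protein to other proteins, Usp18 was the member furthest apart. Usp18, the protease that removes ISG15 and also restrains the interferon receptor, was at 7.72 on the KO DSS and 7.75 on the WT DSS array, and at 8.71 on the KO untreated and 7.24 on the WT untreated array. Herc6, the ligase for ISG15 in mouse, was at 5.61 on the KO DSS and 5.57 on the WT DSS array, and at 6.74 on the KO untreated and 6.20 on the WT untreated array. On this probe set both DSS arrays lay below both untreated ones. A dimmer probe set of Herc6 had another order, at 4.13 on the KO DSS, 3.18 on the WT DSS, 3.94 on the KO untreated and 3.72 on the WT untreated array. Trim30a, which restrains inflammatory signalling in mouse, was at 8.58 on the KO DSS, 7.88 on the WT DSS, 8.57 on the KO untreated and 8.40 on the WT untreated array. Its other probe set was highest on the KO untreated array (7.26). That probe set differed by 0.84 between KO and WT without DSS, against 0.17 for the chosen one. Parp9, Parp14 and Dtx3l, which encode ADP-ribosyltransferases and the ubiquitin ligase partner of PARP9, kept close together, with KO minus WT differences of 0.49, 0.68 and 0.47 without DSS and of 0.26, 0.17 and 0.18 with DSS.

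Of the other induced genes, Lgals3bp, a secreted glycoprotein, was at 8.98 on the KO DSS and 9.57 on the WT DSS array, and at 10.20 on the KO untreated and 9.19 on the WT untreated array. Rtp4, a chaperone of receptors, was 0.74 higher in KO without DSS, and Ifi35 was 0.64 higher. Ifi27, a mitochondrial and nuclear envelope protein gene, was the exception, at 7.96 on the KO DSS, 7.76 on the WT DSS, 7.74 on the KO untreated and 8.30 on the WT untreated array. Its second probe set also differed by -0.50 between KO and WT without DSS. In all, 14 members had 21 further probe sets, and all 21 had the sign of the chosen probe set in the untreated comparison, 7 of them at least 2-fold higher in KO. Signs were the same for 19 of the 21 in KO minus WT with DSS. They were the same for 18 in DSS minus untreated in KO and for only 12 in WT.

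Members with and without the ISRE letters overlapped in their untreated KO minus WT difference. Among the 12 with a match in capitals such as those printed, the median was 0.91 (0.17 to 1.72), with 6 at least 2-fold higher. For the 13 without one the median was 0.54 (0.06 to 2.16), with 4 at least 2-fold higher. Ifit2 and Irf7, which had the highest differences, are among the 13, so the windows of these 2 genes did not hold the letters. The 10 members outside the promoter table had a median of 0.71, and 3 of them were at least 2-fold higher.

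Among DSS-treated mice, the members had no common direction between KO and WT. The median difference was -0.03, against -0.02 over all genes tested, with 17 of 35 above 0 and 18 below. At least 2-fold higher was 1 of 35 (2.86%), where 4.22% of all genes tested were 2-fold higher, and 0 were 2-fold lower (1.21% of all genes). The lowest differences were those of Bst2 (-0.94), Oas3 (-0.72), Irf7 (-0.65) and Dhx58 (-0.65), and the highest those of Ifit3 (1.00), Irf1 (0.78) and Trim30a (0.70).

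With DSS in the KO colon, 16 of 35 members (45.7%) were at least 2-fold lower than on the KO untreated array, where 6.68% of all genes were 2-fold lower. The median was -0.91, against 0.06 over all genes tested. Irf7 (-2.40), Oas3 (-2.05) and Oas2 (-1.70) were lowest, and Isg20 (1.02) was the only member 2-fold higher (10.8% of all genes). This comparison uses the KO untreated array as its baseline. Set against the WT untreated array, the KO DSS array had 3 members at least 2-fold higher (Ifitm3 at 1.43, Ifit2 at 1.38 and Isg20 at 1.08; 6.14% of all genes), 0 at least 2-fold lower (5.05% of all genes) and a median of -0.21.

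In the WT colon, DSS went with little difference in most members. At least 2-fold higher were 3 of 35 (8.57%), where 5.82% of all genes tested were 2-fold higher. They were Ifit2 (1.45), Bst2 (1.30) and Ifitm3 (1.10), each of which was lowest on the WT untreated array. None was 2-fold lower (4.96% of all genes), and the median was -0.13, against -0.01 over all genes tested. The difference of the DSS effect, KO minus WT, had a median of -0.77 over the members, and 13 of 35 were lower by at least 2-fold (5.92% of all genes), against 0 higher (12.3% of all genes). It was lowest for Bst2 (-2.66), Irf7 (-2.45) and Oas3 (-2.25). This value has no residual spread and no test.

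The additive limma model over the 4 arrays gave the tests this design allows, with 1 residual degree of freedom. Of the 35 members, 0 passed an adjusted p of 0.05 for DSS against untreated, and 0 passed for KO against WT (0% of all 12189 genes tested in each). At an unadjusted p of 0.05, limma called 3 members lower with DSS (Ifit3, Herc6 and Ifit1; 4.15% of all genes) and 0 higher (7.64% of all genes), and 1 higher in KO (Ifit3; 0.665% of all genes) and 0 lower (0.771% of all genes). Ifit3 differed with DSS by -1.0 (SE 0.28, limma adjusted p = 0.39, lower in both genotypes) and between KO and WT by 1.32 (SE 0.28, limma adjusted p = 1, higher in both treatments). On its chosen probe set, Herc6 differed with DSS by -0.88 (SE 0.26, limma adjusted p = 0.396). Irf7 differed with DSS by -1.18 with an SE of 0.68, since its difference was -2.40 in KO and 0.05 in WT, and the model counts that gap as error.

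The rest of the pathway was read from lists of its parts. Interferon genes themselves were dim. Of 9 measured, Ifna4, Ifna11 and Ifnab lay at or under 1.68 on all 4 arrays, the brightest of 12 probe sets for Y-linked genes. The X-inactivation transcript Xist was bright on every array, and this limit was chosen with the values known. Ifnb1 was at 1.98 on the KO DSS, 2.07 on the WT DSS, 2.33 on the KO untreated and 1.91 on the WT untreated array. The KO minus WT median of the list was 0.36 without DSS, with 0 of 9 at least 2-fold apart (3.43% of all genes were higher and 5.99% lower). That median is the value of Ifna11, which lay under the limit, and none of the 9 passed the filter on dim probe sets. With values under the limit set to it, Ifna4, Ifna11 and Ifnab each differed by 0.0, so the median is no measure of a rise. Ifna5 then differed by 0.16 and Ifng by 0.04. Ifna1 (0.42), Ifna2 (0.54), Ifna9 (0.47) and Ifnb1 (0.42) lay above the limit on every array and were higher in KO without DSS, less than 2-fold and below the array median. Ifng, made by T and NK cells, had another order, at 3.29 on the KO DSS, 1.96 on the WT DSS, 1.72 on the KO untreated and 1.65 on the WT untreated array.

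In the untreated comparison, 3.43% of all genes tested were at least 2-fold higher in KO. Of 14 genes of nucleic acid sensing, 1 was at least 2-fold higher in KO without DSS, the DNA sensor gene Cgas, at 5.26 on the KO untreated and 4.02 on the WT untreated array. With DSS it was at 5.46 on the KO and 5.85 on the WT array. Of 7 negative regulators, the feedback inhibitors Socs3 (1.34) and Socs1 (1.16) were at least 2-fold higher in KO without DSS, and Socs3 was also 2.33 higher with DSS in KO and 2.51 in WT.

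A further 35 measured interferon-stimulated genes, of 41 listed, had a KO minus WT median of 0.47 without DSS (-0.01 over all genes). Of these, 10 were at least 2-fold higher (3.43% of all genes) and 0 lower (5.99%). With DSS the median was 0.11 (-0.02 over all genes), with 8 higher (4.22% of all genes) and 0 lower (1.21%). Ifi44l was the furthest apart in both. It was at 6.93 on the KO DSS and 1.37 on the WT DSS array, and at 6.86 on the KO untreated and 1.77 on the WT untreated array, so that both KO arrays stood far above both WT arrays, and with DSS the KO minus WT difference is at least 5.25. A second probe set was at 6.81 on the KO DSS and 1.33 on the WT DSS array, and at 7.16 on the KO untreated and 1.40 on the WT untreated array, both WT values under the limit of 1.68, and the remaining one was under it on all arrays. Slfn1 (2.03 without and 1.30 with DSS) and Ifi204 (1.53 and 1.54) were also higher in KO in both treatments. Ifi204 was dim, at 3.46 on both KO arrays and at 1.92 on the WT DSS and 1.93 on the WT untreated array. Its WT values lay close to the limit of 1.68, and it passed the filter on dim probe sets only through KO. Phf11d (1.68 without DSS, -0.40 with DSS) and Ifit1bl2 (2.01 and -0.17) were higher in KO without DSS alone, although a second, dimmer probe set of Ifit1bl2 differed by -0.02 without DSS. The brighter probe set of Xaf1 differed by 2.08 and 4.49, and its other probe set by -0.57 and -1.05.

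**Figure D3:**
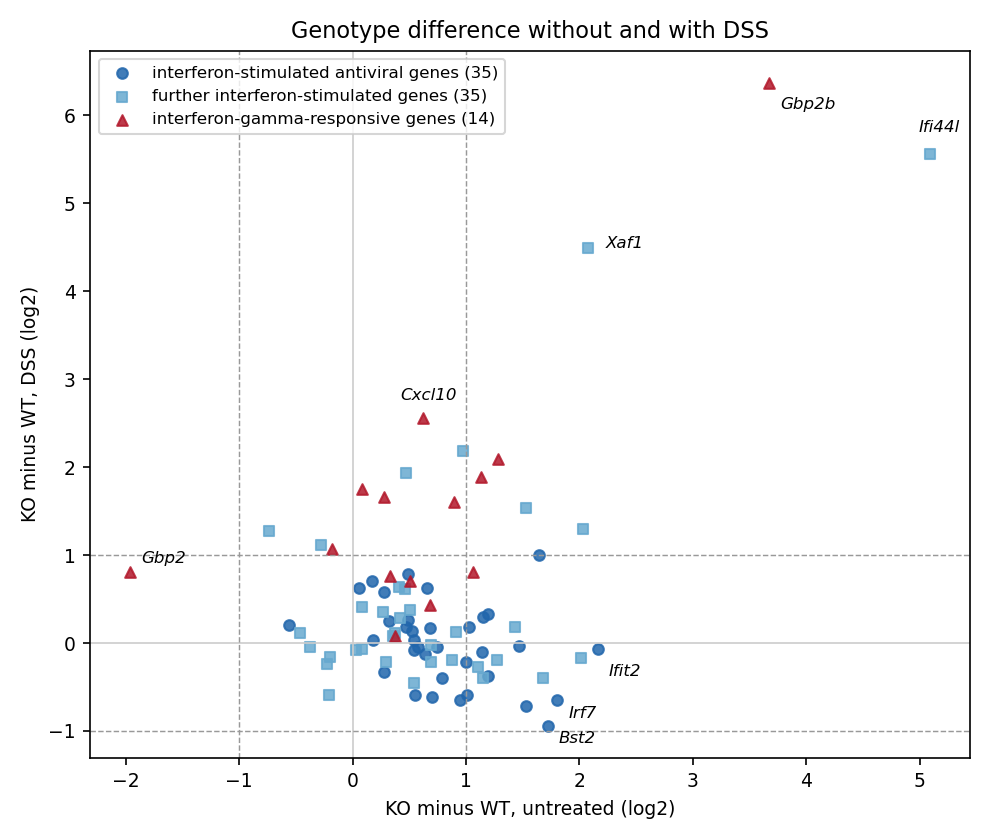
KO minus WT log2 difference without DSS (horizontal axis) and with DSS (vertical axis), 1 point per gene, for the 35 interferon-stimulated antiviral genes, 35 further interferon-stimulated genes and 14 interferon-gamma-responsive genes, with dashed lines at 2-fold. The antiviral genes spread to the right (median 0.68) and stay near 0 on the vertical axis (median -0.03), while the interferon-gamma-responsive genes have medians of 0.56 and 1.34.

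Genes that respond mainly to interferon-gamma were ordered differently over the arrays. Of 14 measured, 8 were at least 2-fold higher in KO than in WT with DSS (4.22% of all genes) and 0 lower (1.21%), with a median of 1.34. Without DSS, 4 were higher (3.43% of all genes) and 1, Gbp2 at -1.96, was lower (5.99%), with a median of 0.56. The KO DSS array was the highest for 10 of the 14, against 4 of the 35 antiviral genes and 24% of all genes. Cxcl10, a chemokine that draws T cells, was at 8.30 on the KO DSS, 5.74 on the WT DSS, 6.49 on the KO untreated and 5.87 on the WT untreated array. Gbp2b, an antimicrobial GTPase gene, was at 8.39 on the KO DSS and 2.02 on the WT DSS array, and at 6.85 on the KO untreated and 3.18 on the WT untreated array. Its WT DSS value lay close to the background limit of 1.68. The difference between the lists was not tested. The GAS letters stood in windows of 8 of the 25 members in the promoter table, and the match of 1 of them is marked here. In Irf1, the member that is known for its response to interferon-gamma, the match to these letters begins 90 bases before the start. It is shown in capitals (chr11:53769914-53769942, plus strand) and is no evidence of binding.
Irf1: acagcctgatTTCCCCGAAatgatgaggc

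**Figure D4:**
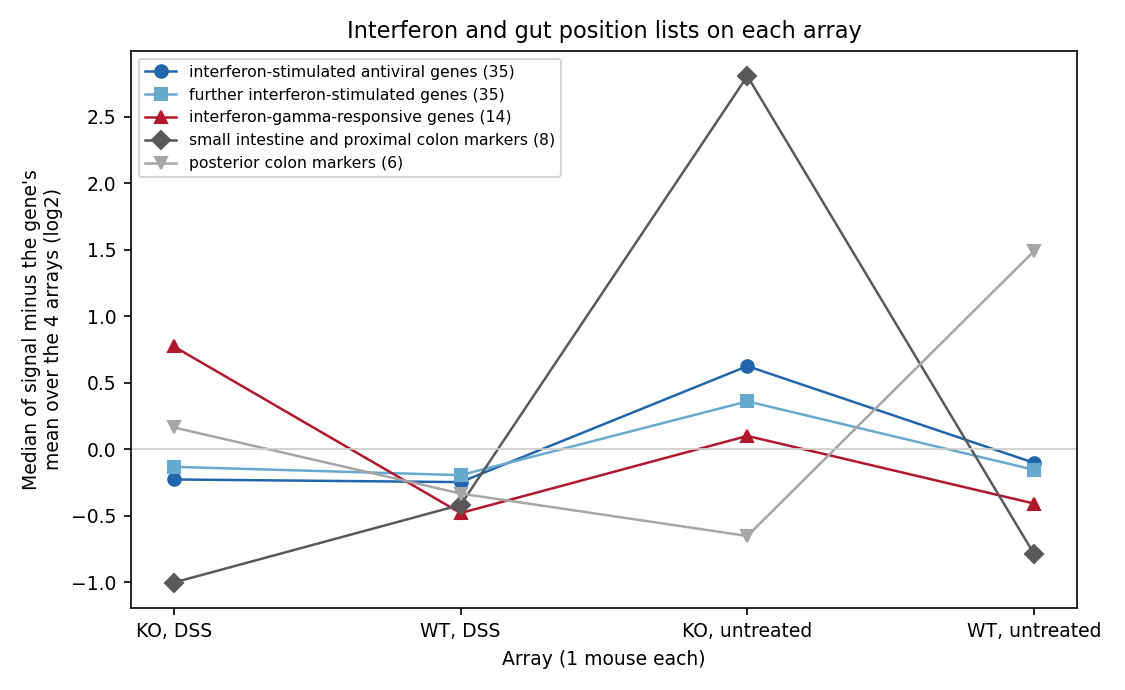
Median over each list of the signal minus the gene's own mean over the 4 arrays (log2), on each array, for 3 interferon lists and 2 lists of gut position markers; numbers in the legend are genes measured, and lines only join the points of a list. The antiviral genes are at -0.23 on the KO DSS, -0.25 on the WT DSS, 0.62 on the KO untreated and -0.1 on the WT untreated array, and the small intestine and proximal colon markers are at 2.81 on the KO untreated array.

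Markers of gut position and of some cell types moved with the untreated difference. In that comparison, 3.43% of all genes tested were at least 2-fold higher in KO and 5.99% at least 2-fold lower. Among 8 markers of small intestine and proximal colon, 7 were at least 2-fold higher on the KO untreated than on the WT untreated array, with a median of 3.63, and the mean of the list was 6.57 on the KO untreated array against 2.80 to 3.54 on the other arrays. Of 6 posterior markers, 5 were at least 2-fold lower, and their mean was 2.87 on the KO untreated array against 3.76 to 5.69 on the others. T and NK cell markers had a KO minus WT median of 0.47 without DSS, with 2 of 11 at least 2-fold higher (Gzmb and Nkg7). Their differences ran from -0.21 to 1.67, with 1 of 11 below 0. The KO untreated array was highest for 9 of 11, against 29% of all genes. Their mean was 4.25 on the KO DSS, 4.0 on the WT DSS, 4.71 on the KO untreated and 4.13 on the WT untreated array. Macrophage markers had a median of 0.47 with 0 of 9 at least 2-fold apart. All 6 smooth muscle markers were lower on the KO untreated than on the WT untreated array, 3 of them at least 2-fold (median -0.94), and 2 of 4 plasma cell markers were at least 2-fold lower. The part of these position and cell markers in the interferon result was not tested. Of 6 plasmacytoid dendritic cell markers, 3 were at least 2-fold lower in KO without DSS (Tcf4 at -1.53, Ly6d at -1.49 and Spib at -1.05) and 0 higher. The rest differed by 0.55 (Cox6a2), 0.12 (Siglech) and -0.05 (Pacsin1). Plasmacytoid dendritic cells are the main source of interferon-alpha. Their defining marker Siglech was at 2.28 on the KO DSS, 2.32 on the WT DSS, 2.68 on the KO untreated and 2.56 on the WT untreated array, below the array median throughout. The KO minus WT median of the plasmacytoid dendritic cell markers was -0.55 without DSS and 0.51 with DSS. That of 4 B cell markers was -1.88 without DSS and 2.38 with DSS. Tcf4, Ly6d and Spib had the same directions as these B cell medians, at 0.91, 2.1 and 1.7 with DSS. Which cells carried these genes was not tested, so their lower values are no measure of plasmacytoid dendritic cells.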

How the data were processed

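The deposited table held 45101 probe sets on 4 arrays. Its values, deposited by the authors, were read as log2 because the top value, taken as a natural log, would be 556821 on a linear scale, beyond the 65535 a scanner can record. Their summarization and normalization are not given in the sources used here. Per the labels' protocols, Trizol was used for RNA and biotin for labelling. Probe sets were named by the platform annotation, with symbols updated by gene number through a RefSeq table of GRCm38.p6. Of the probe sets, 34945 had 1 symbol (34741 matched by gene number), 932 several, 9160 none and 64 were controls. Genes tested lay above the array median on at least 1 array. Differences within a pair of arrays have no test. DSS (with genotype as covariate) and KO (with treatment as covariate) were tested with limma 3.58.1 (R 4.3.3) in an additive model. Moderated two-sided tests let the variance follow intensity (eBayes with trend), and p was adjusted by Benjamini-Hochberg across 12189 genes at a threshold of 0.05. The code was tested on simulated data. The number of arrays limits the precision. The members and lists were chosen with earlier results of these data known, and the motifs and printed promoters after the values were seen. Named genes were all members, the members of each pathway list at least 2-fold apart in the comparison described (up to 6), and up to 4 markers of a list, with Adamts12 as a check of the labels. Gzmb, Nkg7, Siglech, Pacsin1, Ifnb1, Ifna1, Ifna2, Ifna4, Ifna5, Ifna9, Ifna11, Ifnab, Ifng and Xist fall outside this rule and were chosen after their values were seen. Calculations used Python 3.11.15, pandas 2.3.3 and matplotlib 3.10.9. The list of receptors and signalling kinases is not reported here.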

Additional observations from a re-analysis of the deposited data

Results flagged for a closer look

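Bst2 differed with DSS in opposite directions, by -1.36 in KO and 1.30 in WT, a gap of -2.66 on the log2 scale. Gbp2b differed with DSS by 1.54 in KO and -1.16 in WT, a gap of 2.70. The median of 4 B cell markers differed with DSS by 2.82 in KO and -1.42 in WT, a gap of 4.24, and between KO and WT by 2.38 with DSS and -1.88 without, a gap of 4.26. With 1 array per group these gaps were not tested, and all of them use the KO untreated array.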

How the results depend on the processing

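The alternatives were quantile normalization, centring each array on its median, averaging all probe sets of a gene, dropping ambiguous probe sets, which may detect more than 1 transcript (26 members left), a filter on dim members, a floor at the background limit, and changes of the limma model, its filter and its arrays. The untreated KO minus WT median of 0.68 was 0.79 with quantile normalization, 0.82 with the mean over probe sets and 0.87 without ambiguous probe sets. The DSS minus untreated median in KO of -0.91 was -1.05 with quantile normalization, -1.02 without ambiguous probe sets, and -0.21 against the WT untreated array. The count of 1 member at least 2-fold higher was 0 for KO minus WT with DSS when arrays were centred, and for DSS in KO it was 0 with quantile normalization or without ambiguous probe sets and 3 against the WT untreated array, where 0 in place of 16 were lower. In limma, 0 members passed under every alternative run, leaving out each array included (0 to 0); over all genes, 1 gene passed for DSS without the covariate and 1 with quantile normalization. Leaving out an array also dropped the covariate and left 1 array on one side, taken to vary like the others, so these fits change both choices at once. At an unadjusted p of 0.05, limma then had 18 members lower with DSS without the WT untreated array (1060 of 12189 genes) and 9 higher in KO without the KO DSS array (336 of 12189 genes). Without the KO untreated array, 3 members were higher and 2 lower with DSS (1090 and 928 genes), against 0 and 3 with all arrays, and the member medians were -0.17 for DSS (-0.49 with all arrays) and -0.08 for KO (0.38 with all arrays). No paired analysis was possible because each group has 1 array and the labels give no replicate numbers.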
